A study of Mus musculus with 9 samples.

Results

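The genes described here are NRF2, its classical target genes and the genes of glutathione synthesis, taken as the rows of the raw count table whose symbol is Nfe2l2, Gclc, Gclm, Slc7a11, Gsr, Txnrd1, Srxn1, Nqo1, Hmox1 or Osgin1. All 10 were among the 28956 symbols of the table and all 10 passed the filter on low counts that 17582 genes passed. RNA from liver of C57BL6J mice aged 8 weeks was sequenced in 9 libraries, 3 in each of 3 groups. APAP_MSC mice and APAP_HDF mice received 500000 MSC or HDF cells intravenously 90 min after APAP, and APAP mice received APAP without cells. All 3 groups had received APAP intraperitoneally at 300 mg/kg and the title of the study sets the livers at 24 h, so every value is a level in injured liver, and no liver without APAP was analysed here. APAP usually stands for acetaminophen, an analgesic that is toxic to hepatocytes in overdose, MSC for mesenchymal stromal cells and HDF for human dermal fibroblasts, but the labels spell out none of them. Although hepatocytes are given as the cell type, RNA came from pieces of unfractionated liver.

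NRF2, encoded by Nfe2l2, is a transcription factor that KEAP1 marks for degradation in resting cells. When electrophiles or oxidants modify KEAP1, NRF2 accumulates, pairs with a small MAF protein and binds antioxidant response elements (ARE) in the promoters and enhancers of its target genes, so its activity is set largely at the protein level and is not read from its own mRNA. In liver the quinone imine made from acetaminophen by cytochrome P450 enzymes is detoxified by conjugation to glutathione. Glutathione is rebuilt from cysteine by glutamate cysteine ligase, whose catalytic subunit is GCLC and whose modifier subunit is GCLM, followed by glutathione synthetase.

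Promoter windows from RefSeq on GRCm38.p6, from 250 bases before to 50 after a gene's start, were held for 7 of the 10 members, with 9 windows in all because Txnrd1 has 3. Gclc, Hmox1 and Gsr have no entry. The windows of Slc7a11, Srxn1 and Gclm are shown because they hold different elements of this pathway: the response to amino acid shortage in the cystine importer, an AP-1 like motif that overlaps many AREs, and the ARE core. Motif matches are in capitals and all other bases in lower case, 5′ to 3′ on the strand of the gene. The Slc7a11 window is chr3:50443564-50443863 on the minus strand, the Srxn1 window chr2:152105274-152105573 on the plus strand and the Gclm window chr3:122245307-122245606 on the plus strand.
Slc7a11: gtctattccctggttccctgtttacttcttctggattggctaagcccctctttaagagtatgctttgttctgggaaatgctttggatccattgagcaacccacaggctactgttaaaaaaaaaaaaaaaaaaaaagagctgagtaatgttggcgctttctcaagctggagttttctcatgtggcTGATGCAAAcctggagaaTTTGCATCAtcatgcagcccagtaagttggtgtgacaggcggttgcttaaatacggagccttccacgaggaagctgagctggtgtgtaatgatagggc
Srxn1: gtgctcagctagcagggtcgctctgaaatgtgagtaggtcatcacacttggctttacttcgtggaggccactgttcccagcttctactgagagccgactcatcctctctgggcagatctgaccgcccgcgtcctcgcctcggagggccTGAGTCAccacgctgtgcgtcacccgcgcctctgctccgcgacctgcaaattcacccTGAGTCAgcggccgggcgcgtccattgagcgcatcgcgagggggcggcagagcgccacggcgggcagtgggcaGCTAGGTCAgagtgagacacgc
Gclm: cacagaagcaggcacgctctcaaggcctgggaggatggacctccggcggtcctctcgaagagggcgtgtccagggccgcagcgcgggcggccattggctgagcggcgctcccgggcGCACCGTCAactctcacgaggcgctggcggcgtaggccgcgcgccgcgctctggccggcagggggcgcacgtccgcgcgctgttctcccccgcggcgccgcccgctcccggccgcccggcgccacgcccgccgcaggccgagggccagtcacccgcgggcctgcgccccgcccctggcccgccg
Both strands were searched for each motif, and its share of 32851 promoter windows of the same length is given beside it. The amino acid response element TGATGCAAA was found in 0.271% of all windows and, among the members, in that of Slc7a11 alone, which holds it at 66 bases before the start and again on the opposite strand, as TTTGCATCA, at 48 bases before the start. The AP-1 like motif TGANTCA was found in 7.81% of all windows and in 2 of the 9 member windows. In Srxn1 it lies at 102 and 45 bases before the start and in Osgin1 at 97 bases before the start. The ARE core, searched only as TGACNNNGC, was found in 12.4% of all windows and in 4 of the 9. These were the windows of Nfe2l2, Gclm and Srxn1 and 1 of Txnrd1. In Gclm the match lies at 134 bases before the start on the opposite strand. In Srxn1 it begins at base 29 from the start, also on the opposite strand. Forms of the ARE core with G in place of this C were not searched or counted. Such a form lies at the AP-1 like match at 45 bases before the start in Srxn1. Another lies at the AP-1 like match in Osgin1, on the opposite strand. The count of 4 therefore does not show that the other windows lack an ARE. The longer form GCTGAGTCA was found in 0.454% of all windows and in none of the members' windows, which says only that these letters are not in these windows.

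Libraries held 53267231 to 63175573 counts, and the members held between 148 counts (Slc7a11 in 1 APAP_MSC library) and 62429 counts (Gclc in 1 APAP_HDF library). Levels are CPM (counts scaled to a common library size) with TMM-scaled library sizes, a scaling meant to reduce the effect of differences in library composition. Differences are log2 fold changes from the edgeR quasi-likelihood fit, and a gene was called changed at an adjusted p under 0.05 over all 17582 genes. CPM are not divided by transcript length, so levels of different genes are not compared. In pieces of whole liver, fewer cells of a type and less RNA per cell cannot be told apart. The labels do not say that libraries came from separate animals, so p-values measure the spread between these libraries.

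With MSC, Hmox1, Slc7a11 and Gsr fell relative to APAP alone and no member rose, while the mRNA of Nfe2l2 itself did not pass the test. That is 3 of 10 members called, all lower, beside 6.38% of all tested genes called in either direction, 3.54% lower and 2.83% higher. The members were chosen with earlier results of these data known. The count of called members was 0 without APAP 1, APAP 2, APAP_MSC 2 or APAP_MSC 3. It was 1 without APAP_HDF 2 and 2 or 3 without each other library. Without APAP 3 the 2 were Slc7a11, lower, and Osgin1, higher (log2 fold change 1.36, adjusted p = 0.0309). Hmox1 (adjusted p = 0.0744) and Gsr (0.0751) lost their calls in that fit. The median log2 fold change was -0.40 over the members and -0.01 over all tested genes, with 7 estimates below 0 and 3 above it. With HDF no member was called, and neither was any other gene (0% of those tested). At an unadjusted p under 0.05 the edgeR count was 0 of 10 members beside 8.78% of all tested genes, and DESeq2, another count model, called 0 members and 69 genes in all. Between the cell types, Gclc and Gsr fell in APAP_MSC livers relative to APAP_HDF livers, 2 of 10 beside 8.89% of all tested genes in either direction, 3.99% lower and 4.9% higher. That count was 0 or 1 without any 1 of the 9 libraries. Both comparisons with APAP use the same 3 APAP libraries. In the test of any difference among the 3 groups, Slc7a11 was the 1 member called (edgeR adjusted p = 0.0413), beside 7% of all tested genes.

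**Figure D1:**
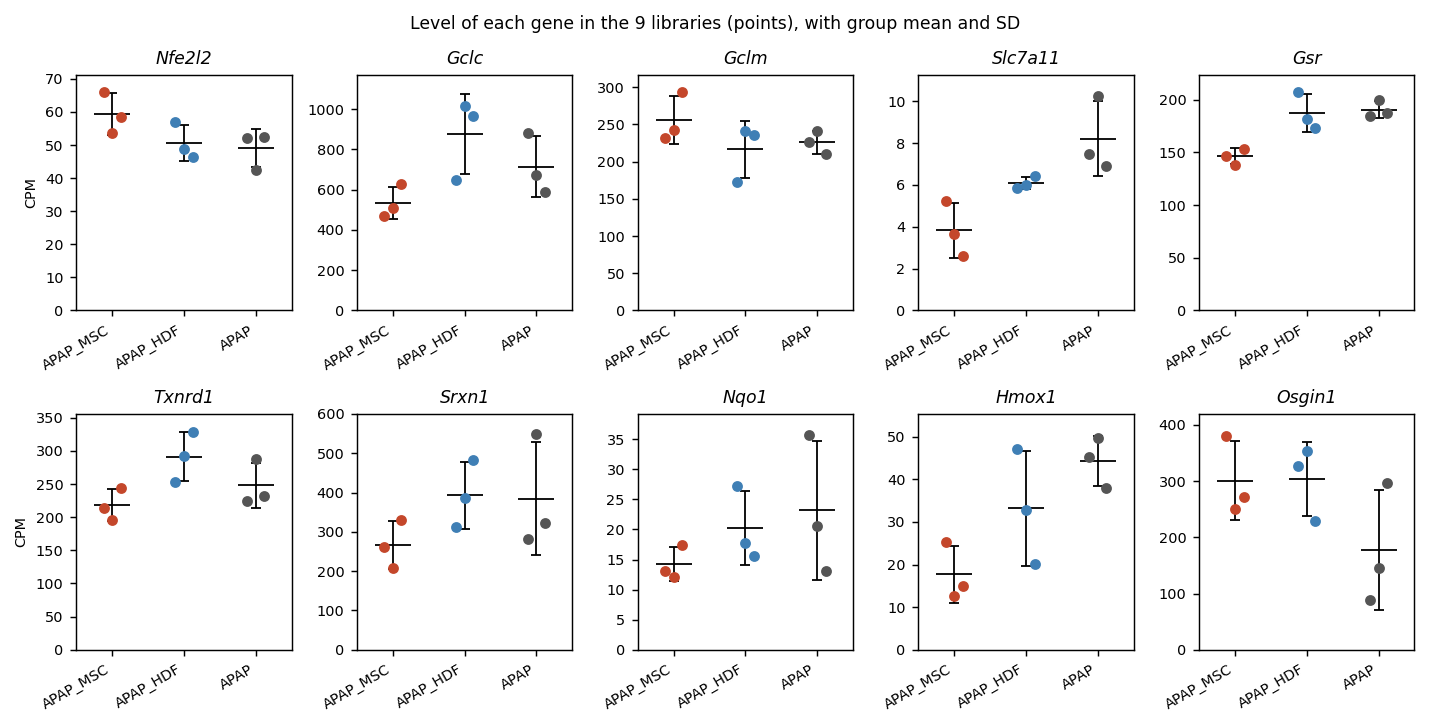
Level of each of the 10 genes in CPM (vertical axes) in every library, with the group mean and SD, for APAP_MSC, APAP_HDF and APAP, 3 libraries each. Slc7a11 lies between 2.61 and 5.24 CPM in APAP_MSC, 5.87 and 6.43 in APAP_HDF and 6.90 and 10.2 in APAP, while Osgin1 in APAP spans 88.9 to 296 CPM.

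**Figure D2:**
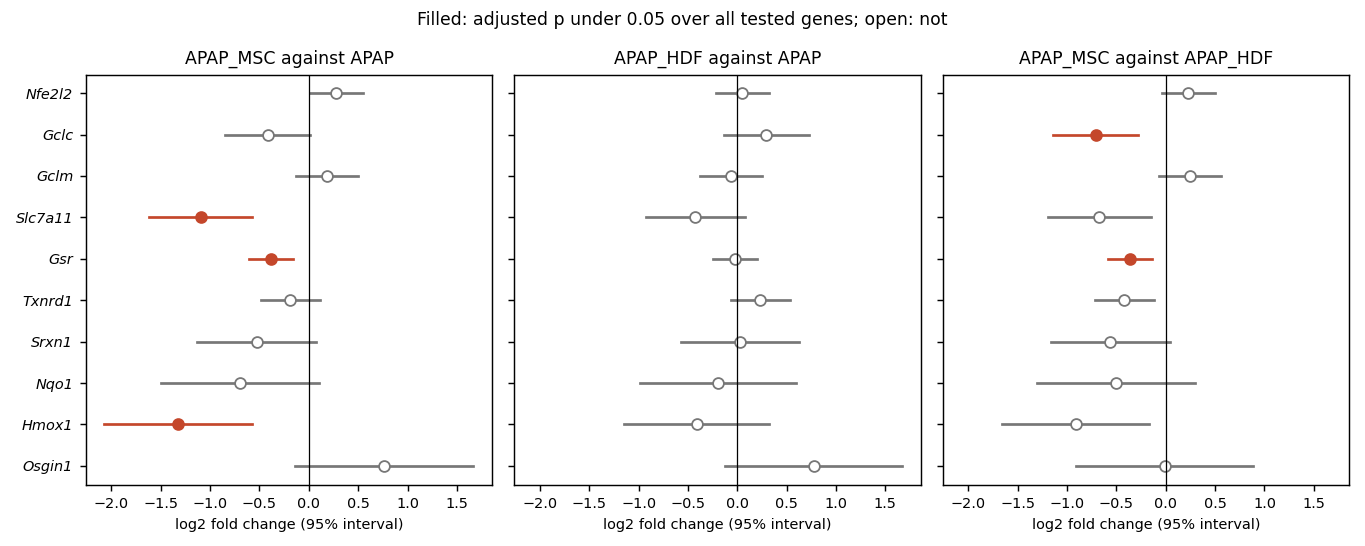
Log2 fold change (horizontal axis) of each member in the 3 comparisons with the 95% interval of the edgeR fit, filled where the adjusted p was under 0.05. Hmox1 (-1.32), Slc7a11 (-1.10) and Gsr (-0.38) are filled for APAP_MSC against APAP, Gclc (-0.71) and Gsr (-0.36) for APAP_MSC against APAP_HDF, and none for APAP_HDF against APAP.

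Nfe2l2 had 66.1, 53.7 and 58.4 CPM in APAP_MSC libraries 1, 2 and 3, 56.9, 48.8 and 46.5 CPM in APAP_HDF libraries and 52.3, 42.4 and 52.5 CPM in APAP libraries. Every APAP_MSC library lay above every APAP library, whereas APAP_HDF overlapped both. Groups without overlap occurred for 28.5% of all tested genes in that comparison, and for 4 of the 10 members. Nfe2l2 was the 1 that was higher, beside 13.7% of all genes, and 3 were lower, beside 14.7%. The mean was 59.4 ± 6.24 CPM in APAP_MSC and 49.0 ± 5.75 CPM in APAP (SD, n = 3 each), a log2 fold change of 0.28 ± 0.12 (SE) that did not pass the test (edgeR adjusted p = 0.205). The difference was 0.05 ± 0.12 for APAP_HDF against APAP (edgeR adjusted p = 0.935) and 0.23 ± 0.12 for APAP_MSC against APAP_HDF (edgeR adjusted p = 0.269).

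Of 18 tested genes that regulate or partner NRF2, 0 were called in APAP_MSC against APAP, beside 6.38% of all tested genes. In APAP_MSC against APAP_HDF 3 were called lower, beside 3.99% of all tested genes. These were Sqstm1, whose product p62 sequesters KEAP1, and Maff and Mafk, which encode small MAF partners of NRF2. Maff had 11.5, 6.25 and 9.60 CPM in APAP_MSC libraries, 22.3, 21.9 and 29.6 CPM in APAP_HDF libraries and 10.4, 15.8 and 21.1 CPM in APAP libraries. No APAP_MSC library reached the lowest APAP_HDF library, and the log2 fold change was -1.43 ± 0.28 (edgeR adjusted p = 0.0151). Mafk averaged 17.7 ± 2.24 CPM in APAP_MSC and 27.5 ± 1.20 CPM in APAP_HDF (SD, n = 3 each), a log2 fold change of -0.64 ± 0.12 (edgeR adjusted p = 0.0101). Sqstm1 averaged 536 ± 54.8 CPM in APAP_MSC and 896 ± 165 CPM in APAP_HDF, a log2 fold change of -0.74 ± 0.19 (edgeR adjusted p = 0.0325). Without APAP_MSC library 2 the calls of Maff (adjusted p = 0.0578) and Mafk (adjusted p = 0.0619) were lost, and that of Sqstm1, which was chosen after its values were seen, was lost without any of 5 libraries at adjusted p-values of 0.0702 (APAP_MSC 3), 0.0735 (APAP_HDF 2), 0.0808 (APAP_MSC 1), 0.0959 (APAP_HDF 3) and 0.158 (APAP_MSC 2). Against APAP, Mafk (-0.37 ± 0.12, edgeR adjusted p = 0.0902), Maff (-0.79 ± 0.28, 0.124), the kinase gene Prkcd (-0.35 ± 0.14, 0.166) and Nfe2l1, a relative of NRF2 (0.24 ± 0.10, 0.179), had the smallest p-values in APAP_MSC, and Sqstm1 (0.57 ± 0.19, 0.520) and the coactivator gene Crebbp (0.26 ± 0.10, 0.544) in APAP_HDF. Keap1 itself had 53.0 ± 0.748 CPM in APAP_MSC, 53.9 ± 2.86 CPM in APAP_HDF and 47.7 ± 7.45 CPM in APAP, and passed no test.

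Gclc, the catalytic subunit of the enzyme that limits glutathione synthesis, had 471, 507 and 626 CPM in APAP_MSC libraries, 647, 1015 and 964 CPM in APAP_HDF libraries and 882, 671 and 588 CPM in APAP libraries. The highest APAP_MSC library lay below the lowest APAP_HDF library, while APAP libraries overlapped both groups. Gclc was 1.64-fold lower in APAP_MSC livers than in APAP_HDF livers, a log2 fold change of -0.71 ± 0.20 with a 95% interval of -1.15 to -0.28 (edgeR adjusted p = 0.0477). Against APAP it was -0.42 ± 0.20 in APAP_MSC (edgeR adjusted p = 0.236) and 0.29 ± 0.20 in APAP_HDF (edgeR adjusted p = 0.681). The call between the cell types was lost when any of 6 libraries was left out, namely APAP_MSC 1 (adjusted p = 0.159), APAP_MSC 2 (0.191), APAP_MSC 3 (0.0604), APAP_HDF 2 (0.141), APAP_HDF 3 (0.127) and APAP 2 (0.0659).

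Gclm, the modifier subunit that raises the enzyme's affinity for its substrates, had 232, 243 and 293 CPM in APAP_MSC libraries, 172, 241 and 236 CPM in APAP_HDF libraries and 226, 241 and 211 CPM in APAP libraries. All 3 groups overlapped. The log2 fold change was 0.18 ± 0.14 for APAP_MSC against APAP (edgeR adjusted p = 0.506), -0.06 ± 0.14 for APAP_HDF against APAP (edgeR adjusted p = 0.928) and 0.24 ± 0.14 for APAP_MSC against APAP_HDF (edgeR adjusted p = 0.319). The estimates of Gclc and Gclm thus had opposite signs in all 3 comparisons, except that Gclm turned to 0.08 in APAP_HDF against APAP without APAP_HDF 1.

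The number of Gclc counts per Gclm count, a ratio within each library that library scaling does not touch and that was chosen after the values were seen, was 2.03, 2.09 and 2.13 in APAP_MSC libraries, 3.75, 4.21 and 4.08 in APAP_HDF libraries and 3.91, 2.78 and 2.80 in APAP libraries. APAP_MSC libraries lay within a narrow range below all 6 others, and APAP_HDF overlapped APAP through 1 high APAP library. The mean ratio was 2.08 ± 0.0507 in APAP_MSC, 4.01 ± 0.235 in APAP_HDF and 3.16 ± 0.646 in APAP (SD, n = 3 each). Exact two-sided permutation tests over libraries gave p = 0.1 for APAP_MSC against APAP and for APAP_MSC against APAP_HDF, the smallest that 3 against 3 allows, and p = 0.2 for APAP_HDF against APAP. The ratio reads counts and not molecules, since the transcripts differ in length.

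**Figure D3:**
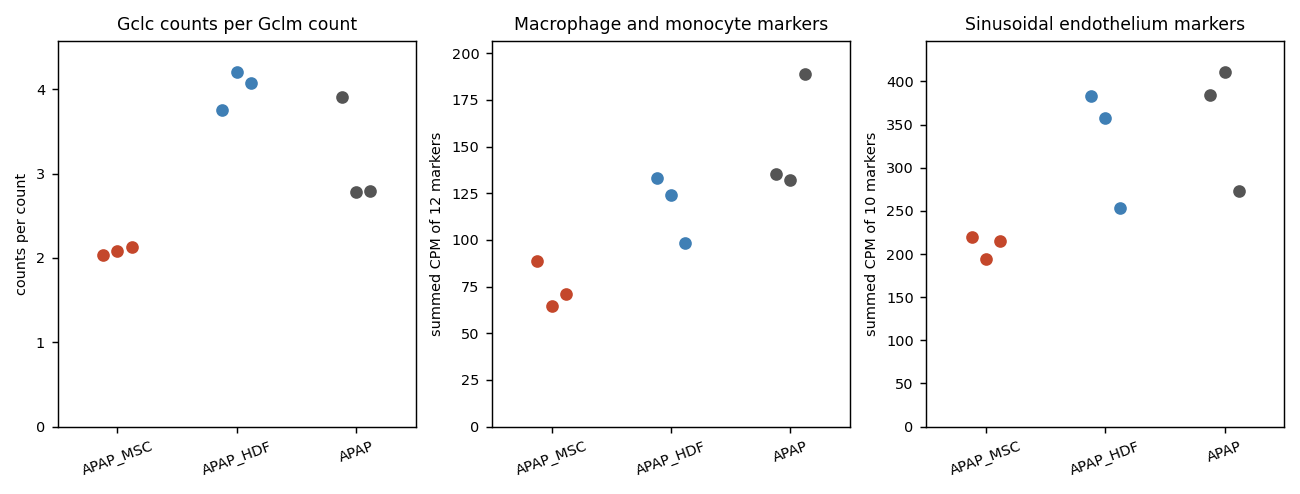
Gclc counts per Gclm count in each library, and the summed CPM of macrophage and sinusoidal endothelial markers, in APAP_MSC, APAP_HDF and APAP (points are libraries, n = 3 each). The ratio is 2.03 to 2.13 in APAP_MSC, and both marker sums are lowest in APAP_MSC.

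Slc7a11, the cystine-specific subunit of the cystine and glutamate exchanger that brings in the precursor of cysteine, had 5.24, 3.64 and 2.61 CPM in APAP_MSC libraries, 5.87, 6.0 and 6.43 CPM in APAP_HDF libraries and 7.47, 10.2 and 6.90 CPM in APAP libraries. The 3 groups did not overlap, with APAP_MSC lowest and APAP highest. Slc7a11 averaged 3.83 ± 1.33 CPM in APAP_MSC and 8.20 ± 1.79 CPM in APAP (SD, n = 3 each), 2.14-fold lower (log2 fold change -1.10 ± 0.24, 95% interval -1.62 to -0.58, edgeR adjusted p = 0.0238). For APAP_HDF against APAP the log2 fold change was -0.43 ± 0.23 (edgeR adjusted p = 0.625). It was the 1 member without overlap there, beside 11.7% of all tested genes in either direction and 6.08% lower. For APAP_MSC against APAP_HDF it was -0.67 ± 0.24 (edgeR adjusted p = 0.103), 1 of 4 members without overlap, all lower, beside 33.2% of all tested genes in either direction, 16.4% lower and 16.8% higher. The call against APAP was lost without APAP 1 (adjusted p = 0.0507), APAP 2 (0.0708), APAP_MSC 2 (0.120) or APAP_MSC 3 (0.0740).

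Slc3a2, which encodes the heavy chain that carries the SLC7A11 protein to the membrane, had 82.8, 74.7 and 88.7 CPM in APAP_MSC libraries, 118, 125 and 135 CPM in APAP_HDF libraries and 70.8, 114 and 119 CPM in APAP libraries. It was lower in APAP_MSC than in APAP_HDF (log2 fold change -0.62 ± 0.17, edgeR adjusted p = 0.0440) and overlapped APAP. It was the 1 gene called among 15 tested genes of cysteine supply and glutathione turnover in that comparison, beside 8.89% of all tested genes. In APAP_MSC against APAP 0 of the 15 were called, beside 6.38% of all tested genes. The Slc3a2 call was lost without any 1 of the 6 libraries compared, at adjusted p-values of up to 0.187 (without APAP_MSC 2). Those with the smallest p-values in APAP_MSC against APAP were Cbs of transsulfuration (0.67 ± 0.21, edgeR adjusted p = 0.0843), the glutathione-degrading Chac1 (0.70 ± 0.23, 0.0871) and Chac2 (0.43 ± 0.15, 0.112), and Csad of taurine synthesis (1.29 ± 0.44, 0.121). They were Ggt6 (-0.57 ± 0.26, 0.574) and Csad (0.95 ± 0.43, 0.581) in APAP_HDF against APAP, and Chac2 followed Slc3a2 in APAP_MSC against APAP_HDF (0.49 ± 0.15, 0.0652). Gss, which encodes glutathione synthetase, averaged 91.3 ± 5.91 CPM in APAP_MSC, 99.5 ± 2.11 CPM in APAP_HDF and 88.5 ± 8.51 CPM in APAP and passed no test.

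Slc7a11 is also a target of ATF4 in the integrated stress response, a programme that answers amino acid shortage and unfolded protein. Of 12 tested genes of that response, 1 was called higher and 1 lower in APAP_MSC against APAP, beside 2.83% and 3.54% of all tested genes. In APAP_MSC against APAP_HDF 3 were called lower, beside 3.99%. Ddit3, the stress-induced factor CHOP, averaged 29.6 ± 5.23 CPM in APAP_MSC and 12.1 ± 2.18 CPM in APAP (SD, n = 3 each), a log2 fold change of 1.28 ± 0.23 (edgeR adjusted p = 0.0165). That call was lost without APAP_MSC 1 (adjusted p = 0.0524) or APAP_MSC 2 (0.0556). Eif4ebp1, an inhibitor of cap-dependent translation, was lower in APAP_MSC than in APAP_HDF by a log2 fold change of -0.71 ± 0.09 (edgeR adjusted p = 0.00173), a call that held in all 9 fits that left out 1 library. Psat1, of serine synthesis, was also lower in APAP_MSC than in APAP_HDF (-0.77 ± 0.16, edgeR adjusted p = 0.0168), a call lost without APAP_MSC 2 (0.0838) or APAP_HDF 2 (0.0536). Eif4ebp1 was the gene called lower against APAP (-0.44 ± 0.09, edgeR adjusted p = 0.0200), which was lost without APAP 2 (0.0550), APAP_MSC 1 (0.0643), APAP_MSC 2 (0.112) or APAP_MSC 3 (0.0662). Vldlr, a lipoprotein receptor, had 1.59 ± 0.45 in APAP_MSC against APAP (edgeR adjusted p = 0.0597). Ddit3 (0.88 ± 0.23, 0.482) and Eif4ebp1 (0.28 ± 0.09, 0.514) had the smallest p-values in APAP_HDF against APAP. Atf4 mRNA had a log2 fold change of 0.39 ± 0.12 in APAP_MSC against APAP that did not pass the test (edgeR adjusted p = 0.0760).

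Gsr, the reductase that regenerates glutathione from its disulfide, had 147, 138 and 153 CPM in APAP_MSC libraries, 208, 182 and 173 CPM in APAP_HDF libraries and 185, 199 and 187 CPM in APAP libraries. The highest APAP_MSC library lay below the lowest library of both other groups, which overlapped each other. Gsr was 1.30-fold lower in APAP_MSC than in APAP (log2 fold change -0.38 ± 0.10, edgeR adjusted p = 0.0467) and 1.28-fold lower in APAP_MSC than in APAP_HDF (-0.36 ± 0.10, edgeR adjusted p = 0.0478). For APAP_HDF against APAP the log2 fold change was -0.02 ± 0.10, with a 95% interval of -0.24 to 0.20. Both calls lay just under the threshold. The call against APAP was kept only without APAP_HDF 1 and was lost without any 1 of the other 8 libraries, at adjusted p-values of 0.0558 (without APAP_HDF 3) to 0.209 (without APAP_MSC 2). The call against APAP_HDF was lost without any 1 of the 9, at 0.0571 (without APAP 3) to 0.213 (without APAP_MSC 2).

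Txnrd1, which reduces thioredoxin, had 214, 196 and 244 CPM in APAP_MSC libraries, 253, 292 and 328 CPM in APAP_HDF libraries and 225, 287 and 232 CPM in APAP libraries. APAP_MSC did not overlap APAP_HDF and overlapped APAP. The log2 fold change was -0.42 ± 0.14 for APAP_MSC against APAP_HDF (edgeR adjusted p = 0.0793), -0.19 ± 0.14 for APAP_MSC against APAP and 0.23 ± 0.14 for APAP_HDF against APAP, none past the test.

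Srxn1 encodes the sulfiredoxin that reactivates overoxidized peroxiredoxins. Its window, printed above, holds 2 AP-1 like motifs and 1 match to the ARE core as searched. Srxn1 had 261, 207 and 330 CPM in APAP_MSC libraries and 312, 385 and 482 CPM in APAP_HDF libraries. APAP libraries had 281, 549 and 323 CPM. All pairs of groups overlapped, and APAP library 2 was the highest of the 9. The log2 fold change was -0.53 ± 0.27 for APAP_MSC against APAP (edgeR adjusted p = 0.278), 0.03 ± 0.27 for APAP_HDF against APAP (edgeR adjusted p = 0.984) and -0.56 ± 0.27 for APAP_MSC against APAP_HDF (edgeR adjusted p = 0.223).

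Hmox1, which encodes the oxygenase that breaks heme down to biliverdin, iron and carbon monoxide and which macrophages that clear red cells express strongly, had 25.3, 12.7 and 15.0 CPM in APAP_MSC libraries, 47.0, 32.7 and 20.01 CPM in APAP_HDF libraries and 45.3, 49.7 and 37.9 CPM in APAP libraries. APAP_MSC did not overlap APAP, and APAP_HDF overlapped both. Hmox1 averaged 17.7 ± 6.70 CPM in APAP_MSC and 44.3 ± 5.97 CPM in APAP (SD, n = 3 each), 2.5-fold lower (log2 fold change -1.32 ± 0.33, 95% interval -2.07 to -0.57, edgeR adjusted p = 0.0498). This was the largest change among the members in that comparison. The call was lost without APAP 1 (adjusted p = 0.128), APAP 2 (0.113), APAP 3 (0.0744), APAP_MSC 2 (0.174), APAP_MSC 3 (0.138) or APAP_HDF 2 (0.0784). For APAP_HDF against APAP the log2 fold change was -0.41 ± 0.32 (edgeR adjusted p = 0.728) and for APAP_MSC against APAP_HDF -0.91 ± 0.33 (edgeR adjusted p = 0.121). Leaving out APAP_HDF 3, its lowest library, brought that last comparison past the test (-1.16, adjusted p = 0.0493).

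Markers of macrophages and of sinusoidal endothelium moved in the same direction as Hmox1. The marker counts that follow stand beside 3.54% of all tested genes called lower and 2.83% higher in APAP_MSC against APAP. In APAP_MSC against APAP_HDF the shares were 3.99% lower and 4.9% higher. Of 12 macrophage and monocyte markers, 6 were called lower in APAP_MSC against APAP, among them Cd68, a lysosomal protein of macrophages, at -1.25 ± 0.16 (edgeR adjusted p = 0.00415), a call that held without any 1 library. The count of 6 was 2 without APAP_MSC 2, 3 without APAP_MSC 1, APAP_MSC 3 or APAP 3 and 4 to 8 without each other library. The summed level of the 12 was 64.5 to 88.8 CPM in APAP_MSC, 98.5 to 133 CPM in APAP_HDF and 132 to 189 CPM in APAP. The 10 Kupffer cell markers summed to 145 to 237 CPM in APAP_MSC, 101 to 215 CPM in APAP_HDF and 181 to 406 CPM in APAP, with 1 called lower in APAP_MSC against APAP. Of 10 sinusoidal endothelial markers 4 were called lower in that comparison, and their sum was 194 to 220 CPM in APAP_MSC, 254 to 383 CPM in APAP_HDF and 273 to 411 CPM in APAP. That count of 4 ran from 0 (without APAP_MSC 2 or APAP_MSC 3) to 8 (without APAP 3). Of 6 tested neutrophil markers 4 were called lower, a count that ran from 0 to 5 without 1 library. The 6 summed to 2.87 to 4.17 CPM in APAP_MSC, 3.37 to 10.97 CPM in APAP_HDF and 9.54 to 12.7 CPM in APAP. Of 10 stellate cell and fibroblast markers 2 were lower, of 5 tested erythroid markers 1 was higher, and of 8 cholangiocyte and 5 tested T, NK and B cell markers 0 were called in APAP_MSC against APAP. Without 1 library the count called lower ran from 0 to 2 for stellate and for Kupffer cell markers. The count called higher ran from 0 to 4 for erythroid markers. The 9 hepatocyte markers, 0 of them called in that comparison, summed to 97479 to 108651 CPM in APAP_MSC, 89234 to 118539 CPM in APAP_HDF and 89450 to 113666 CPM in APAP, so the liver label held in every library. In APAP_MSC against APAP_HDF, where Gclc and Gsr were called, 2 macrophage (Cd68 and Chil3), 4 endothelial (Lyve1, Oit3, Fcgr2b and Eng) and 1 neutrophil marker (Mmp8) were lower. In the same comparison 4 cholangiocyte (Krt19, Epcam, Spp1 and Cftr), 2 hepatocyte (Cps1 and Glul), 1 stellate (Col3a1) and 1 erythroid marker (Alas2) were higher, and 0 Kupffer cell and 0 T, NK and B cell markers were called. Without 1 library the count ran from 1 to 4 for cholangiocyte (1 without APAP_MSC 2), 0 to 2 for hepatocyte (0 without APAP_MSC 1 or APAP_MSC 2, and 1 without APAP_MSC 3, APAP_HDF 2 or APAP_HDF 3) and stayed 2 for macrophage markers. For endothelial markers it was 1 without APAP_MSC 2, 2 without APAP_MSC 1, APAP_MSC 3 or APAP_HDF 2, and 6 without APAP 3 or APAP_HDF 3. It ran from 0 to 1 for neutrophil, 0 to 2 for stellate and 0 to 5 for erythroid markers. The 8 cholangiocyte markers summed to 153 to 167 CPM in APAP_MSC, 135 to 141 CPM in APAP_HDF and 124 to 184 CPM in APAP. No listed marker in the table was at 0 in all libraries. The part of these cell types in the levels of Hmox1, Slc7a11, Gsr, Gclc and the glutathione-using genes was not tested.

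Among 8 tested genes of heme breakdown and iron storage besides Hmox1, only Slc48a1 was called in APAP_MSC against APAP, beside 6.38% of all tested genes. It encodes a transporter that carries heme out of endolysosomes, and had 87.3, 76.9 and 89.3 CPM in APAP_MSC libraries, 150, 135 and 134 CPM in APAP_HDF libraries and 111, 120 and 120 CPM in APAP libraries. APAP_MSC lay below both other groups. The log2 fold change was -0.47 ± 0.10 against APAP (edgeR adjusted p = 0.0200) and -0.73 ± 0.10 against APAP_HDF (edgeR adjusted p = 0.00240). The call against APAP was lost without APAP 2 (adjusted p = 0.0545), APAP_MSC 1 (0.0641), APAP_MSC 2 (0.118) or APAP_MSC 3 (0.0508), and that against APAP_HDF held in all 9 such fits. Ftl1, the ferritin light chain (0.27 ± 0.13, edgeR adjusted p = 0.222), and Slc40a1, the iron exporter (-0.32 ± 0.19, 0.341), did not pass in APAP_MSC against APAP. Fech, which inserts iron into heme, was 0.23 ± 0.10 in APAP_HDF against APAP (edgeR adjusted p = 0.552), where Slc48a1 was 0.26 ± 0.10 (0.542), and -0.33 ± 0.10 in APAP_MSC against APAP_HDF (0.0618). Fth1, the ferritin heavy chain, averaged 3372 ± 338 CPM in APAP_MSC, 4701 ± 103 CPM in APAP_HDF and 4598 ± 830 CPM in APAP and passed no test.

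Nqo1, the quinone reductase often used as a readout of NRF2, had 13.2, 12.2 and 17.4 CPM in APAP_MSC libraries, 27.2, 17.8 and 15.6 CPM in APAP_HDF libraries and 35.8, 20.6 and 13.1 CPM in APAP libraries. All groups overlapped, since APAP libraries spanned almost the whole range. The log2 fold change was -0.70 ± 0.35 for APAP_MSC against APAP (edgeR adjusted p = 0.283), -0.19 ± 0.35 for APAP_HDF against APAP (edgeR adjusted p = 0.904) and -0.50 ± 0.35 for APAP_MSC against APAP_HDF (edgeR adjusted p = 0.413).

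Osgin1, an oxidative stress-induced growth inhibitor, had 380, 250 and 271 CPM in APAP_MSC libraries, 326, 354 and 229 CPM in APAP_HDF libraries and 88.9, 146 and 296 CPM in APAP libraries. APAP library 3 lay within the range of both cell-treated groups and the other 2 APAP libraries lay below all 6 of their libraries. The log2 fold change was 0.76 ± 0.39 for APAP_MSC against APAP (95% interval -0.14 to 1.66, edgeR adjusted p = 0.296) and 0.77 ± 0.39 for APAP_HDF against APAP (95% interval -0.12 to 1.67, edgeR adjusted p = 0.615). Between APAP_MSC and APAP_HDF the difference was -0.01 ± 0.39, and its 95% interval of -0.91 to 0.88 leaves differences of both signs possible. Without APAP library 3, the difference between APAP_MSC and APAP passed the test (1.36, adjusted p = 0.0309).

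The members differed in how far libraries of 1 group lay apart. Osgin1 in APAP had a ratio of highest to lowest library of 3.33, more than 99.3% of the 9868 tested genes with a mean of at least 5 CPM, and Nqo1 in APAP had 2.74, more than 98.6% of them. Hmox1 in APAP_HDF had 2.35, more than 98.0% of genes. In APAP_MSC the widest were Slc7a11 at 2.01 and Hmox1 at 1.99. Gsr in APAP (1.08) and Slc7a11 in APAP_HDF (1.10) were among the tightest, beside medians over genes of 1.17 in APAP_MSC, 1.21 in APAP_HDF and 1.23 in APAP.

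**Figure D4:**
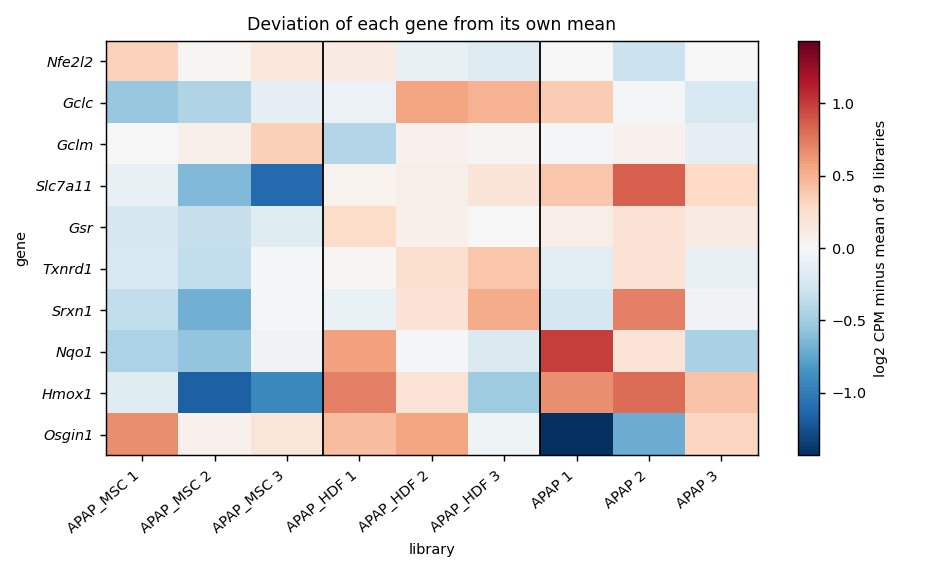
Log2 CPM of each member minus its mean over the 9 libraries (colour scale, log2 units), with libraries in columns by group (APAP_MSC, APAP_HDF, APAP) and members in rows. Hmox1, Slc7a11 and Gsr lie below their means in all 3 APAP_MSC columns, while Osgin1 is low in 2 of the 3 APAP columns. In APAP_MSC 1, Hmox1 (-0.17) and Slc7a11 (-0.11) lie near their means. Gclc, Txnrd1, Srxn1 and Nqo1 also lie below their means in all 3 APAP_MSC columns, at -0.02 (Srxn1) to -0.13 (Gclc) in APAP_MSC 3.

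The members differed in how close their profiles across the libraries lay. Over 45 pairs of members, the root mean square difference of log2 CPM centred on each gene's mean of the 9 libraries was smallest between Txnrd1 and Gsr, at 0.202, and between Txnrd1 and Srxn1, at 0.222. The deviations of these genes themselves were 0.192 for Gsr, 0.225 for Txnrd1 and 0.410 for Srxn1. For Txnrd1 and Gsr the distance was about as large as their own deviations. For Txnrd1 and Srxn1 it was close to the deviation of Txnrd1 and below that of Srxn1. The root mean square difference, which was compared over all pairs, also depends on how far each gene varies. It therefore does not decide whether 2 genes share a profile. The distance was largest between Hmox1 and Osgin1, at 1.08, and between Nqo1 and Osgin1, at 1.02. Hmox1 and Slc7a11 lay 0.387 apart, at rank 12 of the 45 pairs, below the deviations of 0.691 and 0.542 of these genes. By the same measure, among 9868 genes, those most like Hmox1 over the 9 libraries were Calcrl (0.203), Msn (0.203) and Srgn (0.215), beside a root mean square deviation of 0.691 of Hmox1 itself. Those most like Slc7a11 were Clca3a1 (0.238), Abr (0.254) and C1qtnf1 (0.258), beside 0.542 of Slc7a11 itself. Those most like Gsr were Imp4 (0.0403), Ncl (0.0430) and Kif5b (0.0479), beside 0.192 of Gsr. Those most like Gclc were Agfg2 (0.0973), Fbxo31 (0.106) and Jmy (0.132), beside 0.373 of Gclc. Those most like the other members included Adap2 (0.0803), Akap17b (0.0876) and Polr2g (0.0883) for Nfe2l2, Slc30a9 (0.0771) and Setd3 (0.0804) for Gclm, and Gpt2 (0.212), Apob (0.221) and Rasal2 (0.222) for Nqo1. For Txnrd1 they were Pqlc2 (0.0665), Mknk2 (0.0679) and Trim37 (0.0794), for Srxn1 Impact (0.185), Gde1 (0.217) and Ramp2 (0.219), and for Osgin1 Gm8355 (0.220), Hspa8 (0.232) and Gm6210 (0.233). All of these values share the same 9 libraries and their scaling.

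Genes that use glutathione were called higher more often than lower with MSC. Of 27 tested glutathione users, 8 were called higher and 2 lower in APAP_MSC against APAP, beside 2.83% of all tested genes higher and 3.54% lower, and the list median was 0.34 beside -0.01. In APAP_MSC against APAP_HDF 11 were called higher and 0 lower, beside 4.9% of all tested genes higher and 3.99% lower. The list was chosen with earlier results of these data known, so these shares are not a test of it. Gpx1, a peroxidase that spends glutathione on hydrogen peroxide, had 564, 460 and 481 CPM in APAP_MSC libraries, 150, 207 and 206 CPM in APAP_HDF libraries and 219, 260 and 243 CPM in APAP libraries. APAP_MSC lay above both other groups, at a log2 fold change of 1.06 ± 0.14 against APAP (edgeR adjusted p = 0.00500) and 1.42 ± 0.15 against APAP_HDF (edgeR adjusted p = 0.000703). Gstm3, a mu-class transferase that conjugates glutathione to electrophiles, had 195, 121 and 95.9 CPM in APAP_MSC libraries, 18.8, 29.6 and 20.8 CPM in APAP_HDF libraries and 29.6, 41.9 and 21.8 CPM in APAP libraries. Its groups did not overlap for APAP_MSC against APAP, at 2.14 ± 0.32 (edgeR adjusted p = 0.0128). Gstm4 (1.14 ± 0.17, edgeR adjusted p = 0.00616) and Gstm6 (1.18 ± 0.18, edgeR adjusted p = 0.00929) rose with it, and near-identical mu-class copies may share reads. In APAP_HDF against APAP, Mgst3 (-0.65 ± 0.19, edgeR adjusted p = 0.502) and Gpx1 (-0.36 ± 0.14, 0.544) had the smallest p-values. The 2 that fell in APAP_MSC against APAP were Gpx3 (-0.74 ± 0.17) and Glrx (-0.44 ± 0.10), both at an edgeR adjusted p of 0.0299 and named after their values were seen.

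The number of glutathione users called higher in APAP_MSC against APAP was 3 without APAP_MSC 2, 4 without APAP_MSC 1, and 5 without APAP_MSC 3, APAP 1 or APAP 2. In APAP_MSC against APAP_HDF it was 6 without APAP_MSC 2. The calls of Gpx1, Gstm3 and Gstm4 against APAP held in all 9 fits that left out 1 library, and that of Gstm6 was lost without APAP_MSC 2 (adjusted p = 0.0556). Those of Gpx3 and Glrx were lost without APAP 1 or any 1 of the APAP_MSC libraries, at adjusted p-values of up to 0.114 and 0.118.

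Among the remaining fixed lists, most genes passed no test, and those that did included both directions. Their counts stand beside 2.83% of all tested genes called higher and 3.54% lower in APAP_MSC against APAP. In APAP_MSC against APAP_HDF the shares were 4.9% and 3.99%. Of 16 tested thioredoxin and peroxiredoxin genes, 2 rose in APAP_MSC against APAP, the methionine sulfoxide reductases Msrb1 (0.80 ± 0.17, edgeR adjusted p = 0.0211) and Msra (0.41 ± 0.10, edgeR adjusted p = 0.0351), while 4 rose and 2 fell in APAP_MSC against APAP_HDF. Without 1 library the counts against APAP_HDF ran from 0 to 6 higher and from 0 to 2 lower. The peroxiredoxins Prdx3 (0.33 ± 0.10, edgeR adjusted p = 0.0666) and Prdx2 (0.32 ± 0.10, 0.0731) came next against APAP. Prdx2 was called higher against APAP_HDF (0.48 ± 0.10, edgeR adjusted p = 0.0140), which was lost without APAP_MSC 2 (0.0578). Sesn2 (0.31 ± 0.14, 0.573) and Txnip (0.47 ± 0.23, 0.588) had the smallest p-values in APAP_HDF against APAP. Txnip, the inhibitor of thioredoxin, was among those that fell against APAP_HDF (-1.12 ± 0.23, edgeR adjusted p = 0.0169), a call lost without APAP_MSC 2 (adjusted p = 0.0916) or APAP_MSC 3 (0.0583). Cat, which encodes catalase, had 1768, 1717 and 1780 CPM in APAP_MSC libraries, 795, 1166 and 1282 CPM in APAP_HDF libraries and 920, 1000 and 962 CPM in APAP libraries. APAP_MSC was above both groups without overlap, at 0.87 ± 0.16 against APAP (edgeR adjusted p = 0.0161) and 0.70 ± 0.16 against APAP_HDF (0.0224). Of the 4 genes of superoxide and peroxide removal, Cat was the 1 called against APAP, and Cat and Sod2, the mitochondrial dismutase, were called against APAP_HDF. The Cat call against APAP was lost without APAP_MSC 1 or APAP_MSC 2, at up to 0.0724, and that against APAP_HDF without any 1 APAP_MSC library, at up to 0.0827. Sod2 was 0.45 ± 0.12 against APAP_HDF (edgeR adjusted p = 0.0387), lost without any 1 of the 6 libraries compared, at up to 0.146 (APAP_MSC 2). Sod2 (0.33 ± 0.12, 0.125), Sod1 (0.34 ± 0.13, 0.147) and Sod3 (0.02 ± 0.16, 0.967) were not called in APAP_MSC against APAP, nor were Cat (0.17 ± 0.16, 0.772) and Sod2 (-0.12 ± 0.12, 0.781) in APAP_HDF against APAP. Of 10 genes that supply NADPH, Me1 (0.68 ± 0.12, edgeR adjusted p = 0.0138) and Idh1 (0.50 ± 0.11, edgeR adjusted p = 0.0244) rose and Pgd, of the pentose phosphate pathway, fell (-0.43 ± 0.11, edgeR adjusted p = 0.0385) in APAP_MSC against APAP, and Mthfd2 came next (0.51 ± 0.17, 0.0927). Me1 (0.64 ± 0.12, edgeR adjusted p = 0.00918) and Idh1 (0.54 ± 0.11, 0.0133) were also higher in APAP_MSC than in APAP_HDF, both lost without APAP_MSC 2 (0.0547 and 0.0780). Taldo1 (-0.20 ± 0.11, 0.635) and Tkt (-0.22 ± 0.14, 0.664) had the smallest p-values in APAP_HDF against APAP.

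Of 22 tested genes listed as other reported NRF2 targets of detoxification and transport, 3 rose and 2 fell in APAP_MSC against APAP. In APAP_MSC against APAP_HDF 3 rose. Over all tested genes, 2.83% rose and 3.54% fell in the first comparison, and 4.9% rose in the second. Nupr1, a stress-induced chromatin protein, had 7.71, 6.91 and 10.7 CPM in APAP_MSC libraries, 3.92, 4.68 and 6.81 CPM in APAP_HDF libraries and 2.25, 2.26 and 2.16 CPM in APAP libraries. No 2 groups overlapped, and the log2 fold change was 1.93 ± 0.24 for APAP_MSC against APAP (edgeR adjusted p = 0.00341). Ces1g, a carboxylesterase, rose by 1.60 ± 0.35 (edgeR adjusted p = 0.0350), and Ephx1, a microsomal epoxide hydrolase, by 0.63 ± 0.13 (edgeR adjusted p = 0.0216). Akr1b8, an aldo-keto reductase, fell at -1.18 ± 0.30 (edgeR adjusted p = 0.0406), as did Abcc1, an exporter of glutathione conjugates named after its values were seen, at -1.23 ± 0.31 (edgeR adjusted p = 0.0427). Against APAP_HDF, Ces1g (2.37 ± 0.36, edgeR adjusted p = 0.00777) and Ces2g, another carboxylesterase (1.33 ± 0.16, 0.00166), were higher in APAP_MSC, and both calls held without any 1 library. In APAP_HDF against APAP, Ces2g (-0.80 ± 0.16, 0.440) and Nupr1 (1.20 ± 0.24, 0.440) had the smallest p-values. The Nupr1 call in APAP_MSC against APAP held in all 9 fits that left out 1 library. Each other gene called against APAP in this and the preceding paragraph lost its call in 2 to 7 of the 9, with adjusted p-values of up to 0.178 (Pgd). Over all 9 lists and 130 distinct tested genes, 17 rose and 7 fell in APAP_MSC against APAP, 18.5% beside the 6.38% of all tested genes. None passed in APAP_HDF against APAP, and 22 rose and 10 fell in APAP_MSC against APAP_HDF, 24.6% beside 8.89%. All 9 lists were chosen with earlier results of these data known, so these shares describe the lists and are not a test of the pathway.

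**Figure D5:**
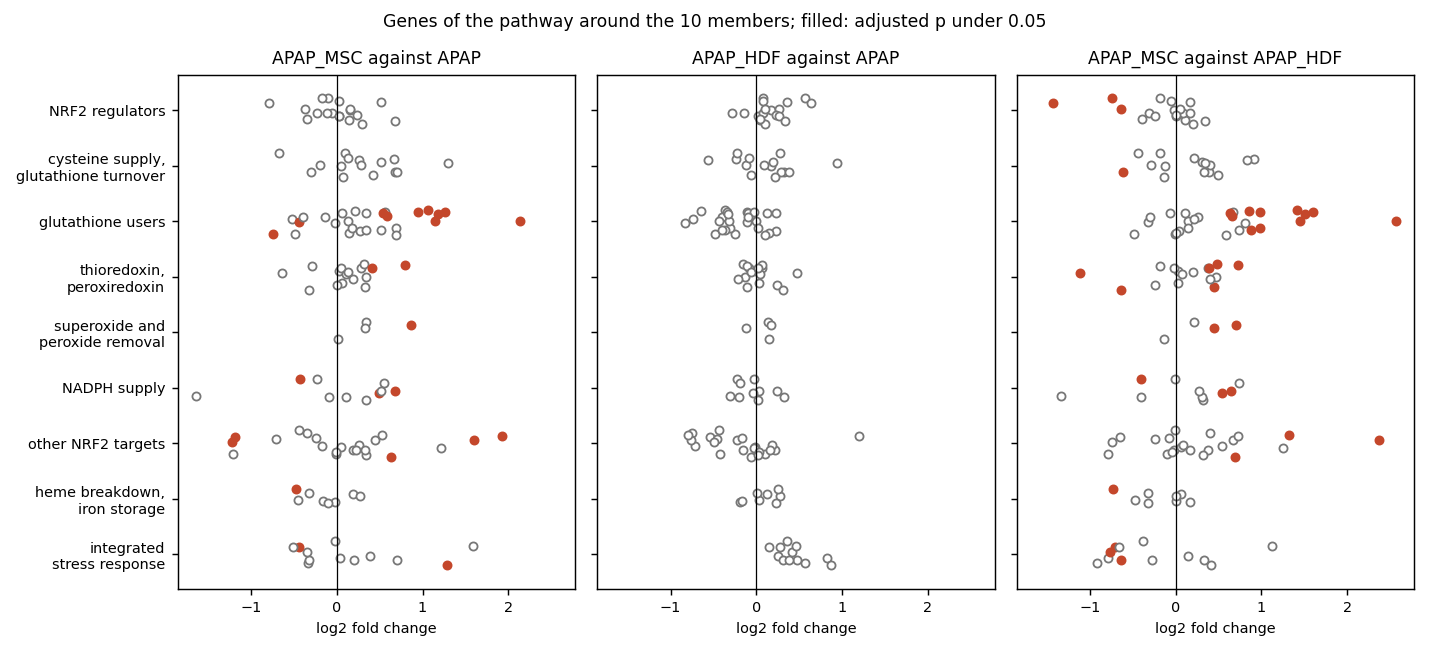
Log2 fold change (horizontal axis) of each tested gene of the 9 pathway lists (rows), in 3 panels for APAP_MSC against APAP, APAP_HDF against APAP and APAP_MSC against APAP_HDF, with genes at an adjusted p under 0.05 filled. Glutathione users hold 8 genes called higher and 2 lower against APAP, and 11 higher and 0 lower against APAP_HDF, and no gene is filled in the middle panel.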

How the data were processed

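Liver RNA was isolated with TRIZOL and made into mRNA libraries with a Tecan kit, per the labels' protocols. HISAT2, Subread and DESeq2, and the builds mm39 and GRCm39, are named in the submitters' processing notes, and strand use in counting is not given in the sources used here. The authors deposited raw read counts per gene symbol and normalized counts, a scaled signal equal to the raw count divided by 1 factor per library. Column headers give the group but no replicate number, so libraries are numbered in column order.

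From the raw counts, edgeR 4.0.16 in R 4.3.3 fitted a robust quasi-likelihood model to all 9 libraries with the group as the only term, after filterByExpr and TMM scaling. It tested 17582 genes, which held 99.966% of counts, with Benjamini-Hochberg adjustment and two-sided tests. Adjusted p-values in the text come from this fit, from the same fit with 1 library left out or, where so stated, from another setting. The SE and the 95% interval come from the fit's F statistic. The smallest level readable, 3 counts, was 0.0453 to 0.0567 CPM per library, for counting error only. Counts of any 2 libraries within a group gave a median chi-square per gene of 3.42 to 10.7, where counting noise alone gives 0.455, so none was treated as a repeat of another. This does not show that they came from separate animals.

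The members and gene lists were chosen with earlier results of these data known. Besides the members, the genes named were the 4 of each list with the smallest p in APAP_MSC against APAP, the 2 with the smallest p in each other comparison, and the 3 closest genes of each member, of which 1 is not reported here. Exceptions are marked as named after their values were seen, and Keap1, Gss and the cell type markers, which also lie outside this rule, were named for their roles. Alternatives were DESeq2 1.42.0, limma 3.58.1 (voom, and log2 of the deposited normalized counts + 1), size factors, no filter, only the compared groups, each library left out and, added after the data were seen, 2 other forms of the edgeR fit. The steps were tested on simulated data.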

Additional observations from a re-analysis of the deposited data

Results flagged for a closer look

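The levels of Gclc and Gsr differed in the direct test between the cell-treated groups in the fit reported, but not in most of the fits with 1 library left out. Gclc was lower in APAP_MSC than in APAP_HDF by a log2 fold change of -0.71 (edgeR adjusted p = 0.0477). Its estimates against APAP, neither of them called, were -0.42 in APAP_MSC (edgeR adjusted p = 0.236) and 0.29 in APAP_HDF (0.681). Gsr was lower in APAP_MSC than in APAP_HDF by -0.36 (edgeR adjusted p = 0.0478). Its estimates against APAP were -0.38 in APAP_MSC (edgeR adjusted p = 0.0467) and -0.02 in APAP_HDF (0.969). Both calls between the cell-treated groups lay close to the threshold. That of Gclc was lost without any 1 of 6 libraries and in 5 of 8 other settings (adjusted p of 0.0502 to 0.110), and that of Gsr without any 1 of the 9 libraries and in 4 of 8 other settings (0.0505 to 0.0696).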

How the results depend on the processing

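No paired analysis was possible because the table columns carry no replicate number. All genes called with DESeq2 numbered 1938 in APAP_MSC against APAP, 69 in APAP_HDF against APAP, 2349 in APAP_MSC against APAP_HDF and 2551 for any difference, beside 1121, 0, 1563 and 1230 in the edgeR fit. Without 1 library these edgeR counts ran from 97 to 1753, 0 to 32, 361 to 1793 and 141 to 1597, the first, the third and the fourth lowest without APAP_MSC 2. The members called in APAP_MSC against APAP were 1 with no filter and 0 to 3 without 1 library. In APAP_HDF against APAP they were 0 in every setting. In APAP_MSC against APAP_HDF they were 0 with size factors and with no filter, 1 with the earlier form of the fit, no robust moderation, 2 groups in the fit and both limma fits, 3 with DESeq2, and 0 to 1 without 1 library. For any difference they were 4 with DESeq2, 2 with limma on normalized counts and 0 to 4 without 1 library. Slc7a11 against APAP was called in all 8 other settings; Hmox1 lost its call with no filter (adjusted p = 0.147) and the earlier form (0.0525), and Gsr with no filter (0.0585). Signs near 0 changed. Osgin1 in APAP_MSC against APAP_HDF was 0.0062 with no filter and -0.22 to 0.12 without 1 library. In APAP_HDF against APAP, without 1 library, Nfe2l2 was -0.050 to 0.11, Gclm -0.14 to 0.076, Nqo1 -0.49 to 0.27, Srxn1 -0.15 to 0.38 and Gsr -0.10 to 0.032. Sod3 in APAP_MSC against APAP was -0.14 to 0.15. The cause of these changes was not tested. With 3 libraries a group, intervals of Osgin1, Nqo1 and Srxn1 leave wide differences possible.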
